A study of Mus musculus with 4 samples.

Results

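Ccl20 encodes a secreted chemokine and Ccr6 encodes the receptor that binds it, and the 2 genes were picked by their symbols from a table of 23356 gene rows. Each symbol matched a single row. Total RNA was sequenced from T helper 17 (Th17) cells, the CD4 T cells that make IL-17 cytokines, grown in vitro for 48 h from wild-type C57BL/6 mice aged 6 to 8 weeks. Of 4 libraries, 2 came from cells exposed to SAA1 (serum amyloid A1, here a recombinant mouse protein), at a labelled dose of 2 ng/ml. SAA1 belongs to the acute-phase proteins and is secreted by hepatocytes and by the epithelium of the gut. The other 2 are titled veh, taken to mean vehicle, with none as their treatment label. The labels do not say whether the libraries of a group came from separate cultures or mice. Expression is given as FPKM, the fragments per kilobase of transcript adjusted for sequencing depth. It corrects for transcript length, so levels of different genes can be set side by side. The authors deposited a single FPKM value for each group, made from both of its libraries. The spread between libraries therefore cannot be shown for any gene.

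CCL20 is the only chemokine known to bind CCR6, a receptor that couples to inhibitory G proteins. Th17 cells are known both to carry CCR6 and to release CCL20, and epithelial cells of the gut release CCL20 during inflammation. Cells with the receptor move along the gradient of the ligand into mucosal and inflamed tissue, and B cells and some dendritic cells carry the receptor as well.

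Transcripts of both genes rose with SAA1. The promoters of both are shown here, as DNA where transcription factors can bind. Whether these stretches take part in the rise was not tested. On the mouse build GRCm38.p6 (the same assembly as mm10), Ccl20 spans chromosome 1 from 83116766 to 83119167 on the plus strand. The authors' row for Ccr6 spans chromosome 17 from 8236043 to 8257129, also on the plus strand. Both intervals are whole genes with exons, introns and untranslated regions. In GENCODE M21, Ccl20 has 3 transcripts of 3 or 4 exons, all coding. Ccr6 has 9 transcripts with 7 different starts, 8 of them coding. No other annotated gene overlaps either one, and the authors' values sum over the transcripts of a gene. The RefSeq promoter table gives 1 start for Ccl20 and 2 for Ccr6. The 250 bases before each start are printed 5′ to 3′ on the plus strand, in lower case. They are chr1:83116516-83116765 for Ccl20, chr17:8235793-8236042 for the upstream start of Ccr6 and chr17:8242276-8242525 for the downstream start. Capitals mark every match, on either strand, to AGGTCA (the core of the element bound by many nuclear receptors) and to the spaced NF-kB pattern, GGG and CC with any 5 bases between them.
Ccl20: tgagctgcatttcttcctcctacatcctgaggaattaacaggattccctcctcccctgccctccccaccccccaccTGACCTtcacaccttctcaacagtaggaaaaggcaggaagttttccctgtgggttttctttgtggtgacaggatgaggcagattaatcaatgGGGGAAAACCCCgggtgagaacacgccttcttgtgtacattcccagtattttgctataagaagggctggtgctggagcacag
Ccr6 upstream start: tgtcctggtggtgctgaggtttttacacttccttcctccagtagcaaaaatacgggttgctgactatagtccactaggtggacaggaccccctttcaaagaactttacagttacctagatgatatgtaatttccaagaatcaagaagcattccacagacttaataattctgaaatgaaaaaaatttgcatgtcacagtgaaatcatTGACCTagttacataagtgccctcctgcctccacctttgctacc
Ccr6 downstream start: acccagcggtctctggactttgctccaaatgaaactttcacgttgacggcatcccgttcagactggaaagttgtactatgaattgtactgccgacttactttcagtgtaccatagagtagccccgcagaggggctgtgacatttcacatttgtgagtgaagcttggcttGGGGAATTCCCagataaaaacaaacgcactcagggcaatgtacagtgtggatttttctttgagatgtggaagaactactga

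AGGTCA occurred once in the Ccl20 window, as its reverse complement from 174 to 169 bases before the start, and once before the upstream Ccr6 start, from 44 to 39 bases before it. It was not found in the window of the downstream Ccr6 start. Of 32851 windows of the same length in the RefSeq table, 14.0% held it. The NF-kB pattern occurred in overlapping matches from 82 to 71 bases before the Ccl20 start, and from 81 to 71 bases before the downstream Ccr6 start. It is a loose pattern, and 45.8% of windows held it. The other patterns were searched on both strands. TTCNNNGAA, the spacing bound by STAT factors, had 2 matches before the upstream Ccr6 start, from 157 to 149 and from 120 to 112 bases before it, and none in the other windows shown (7.02% of all windows held it). TGTGGT, the core bound by Runx factors, was found only in the Ccl20 window, from 114 to 109 bases before the start (14.0% of all windows). GCGTG, the core bound by the aryl hydrocarbon receptor, was found from 61 to 57 bases before the Ccl20 start (28.2%), and TATAA from 28 to 24 bases before it (22.8%), neither in a Ccr6 window. TGANTCA, the AP-1 pattern, was in none of the 3 windows (6.75%). These matches describe letters and show no binding.

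Ccl20 stood at 12.7 FPKM in the vehicle group and at 209 FPKM in the SAA1 group. The level with SAA1 was 16.6 times that with vehicle, or 4.05 ± 0.25 on the log2 scale (the SE is the one implied by the authors' test statistic). A 95% interval from that SE ran from 11.8-fold to 23.2-fold. Ccr6 stood at 15.8 FPKM with vehicle and at 40.6 FPKM with SAA1. That was a 2.57-fold difference, or a log2 ratio of 1.36 ± 0.23, with an interval from 1.89-fold to 3.51-fold. For both genes Cuffdiff's adjusted p was 0.0019 in the authors' deposited table, its smallest value, which 300 genes share. Both members were thus called higher, where called means an adjusted p under 0.05, against 3.97% of 11481 tested rows called higher and 6.52% called in either direction. The p-values rest on 2 libraries per group, and in bulk RNA a different number of cells with a transcript cannot be told apart from a different amount of RNA per cell.

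The ligand moved more than its receptor. The log2 ratio of Ccl20 exceeded that of Ccr6 by 2.68 ± 0.34 (SE, taking the 2 errors as independent), or 6.43-fold. In the vehicle group the Ccl20 transcript was at 0.803 times the FPKM of Ccr6, and in the SAA1 group at 5.16 times. The order of the pair was therefore opposite in the 2 groups, with the receptor transcript ahead in vehicle and the ligand transcript ahead in SAA1. Whether the small gap in vehicle exceeds the spread between libraries cannot be judged from group values.

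Against all other transcripts, the 2 genes started from ordinary levels. Of 10701 rows with at least 1 FPKM in either group, called expressed here, 43.4% were below Ccl20 and 49.7% below Ccr6 in vehicle. The median expressed row was at 15.9 FPKM in both groups. With SAA1, 96.5% of expressed rows were below Ccl20, which then held place 376 by level, against place 6052 in vehicle. Ccr6 went from place 5387 to place 2581, above 75.9% of expressed rows. In vehicle neither transcript stood out by level, and in SAA1 the ligand was among the most abundant.

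**Figure D1:**
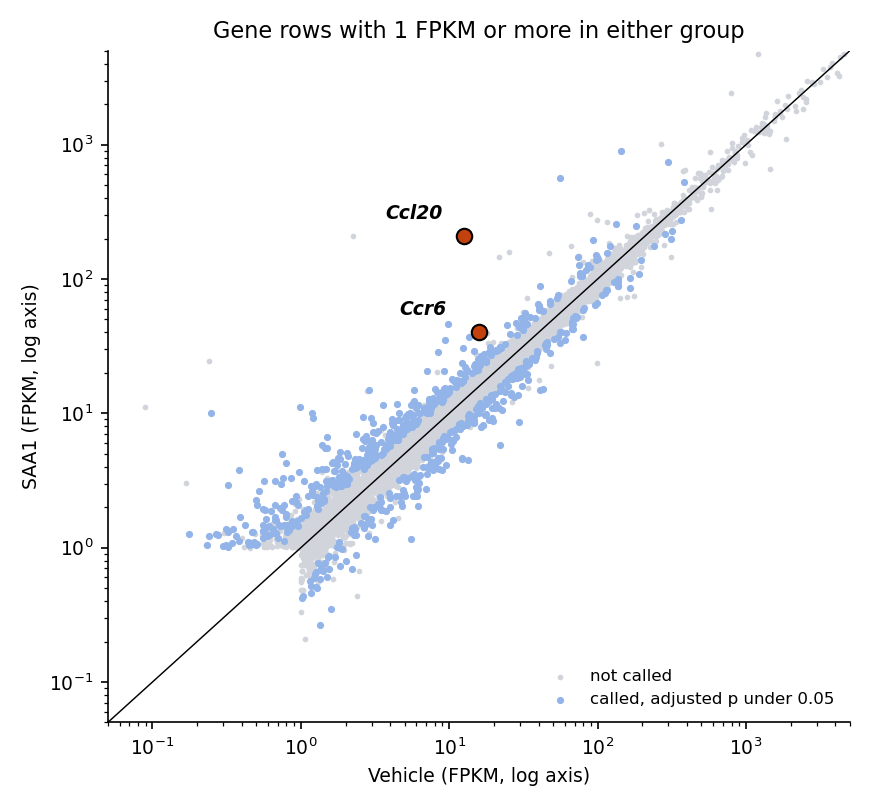
FPKM with vehicle (x, log axis) against FPKM with SAA1 (y, log axis) for gene rows with at least 1 FPKM in either group. Blue points passed the authors' adjusted p of 0.05, grey points did not, the line marks equal levels, and 119 rows fall outside the axes or at 0. Both genes lie above the line, Ccl20 (12.7 and 209 FPKM) much farther from it than Ccr6 (15.8 and 40.6 FPKM).

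By log2 ratio Ccl20 held place 7 among the 10612 expressed rows above 0 FPKM in both groups. Another 52 expressed rows were at 0 FPKM in vehicle. Their rise has no finite ratio, so they are not ranked, though they would stand ahead of both genes. The ranked rows ahead of Ccl20 were Aqp3, a water and glycerol channel, and 5 rows that were not called. Those 5 were Il9, Snord7, Bcl2a1a and the joint rows Amd1,Amd2 and Rnaset2a,Rnaset2b, with Cuffdiff's adjusted p-values, from the authors' deposited table, between 0.18 and 0.74. Among the 456 rows called higher, Ccl20 was thus in place 2. By the deposited test statistic, the log ratio divided by its standard error, Ccl20 was in place 1, at 16.3, just ahead of Il17a at 16.0. That order covers the tested rows with a numeric statistic, and 78 tested rows had none. Ccr6 was in place 93 by log2 ratio among the same 10612 rows and in place 90 among those called higher. By the test statistic Ccr6 was in place 26, at 6.00. A high statistic did not always go with a call. Mir1900, in place 4 at 12.2, and Mir345, in place 8 at 9.18, were not called (Cuffdiff's adjusted p 0.91 and 0.81). The median row called higher had a log2 ratio of 0.80, so Ccr6 lay above it and above 80.3% of the rows called higher. Places by ratio depend on how low a level is admitted. Among all 15434 rows above 0 in both groups Ccl20 was in place 19 and Ccr6 in place 491. Among rows whose vehicle level lay within 2-fold of the gene's own, Ccl20 was in place 1 of 3922 and Ccr6 in place 8 of 4029.

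**Figure D2:**
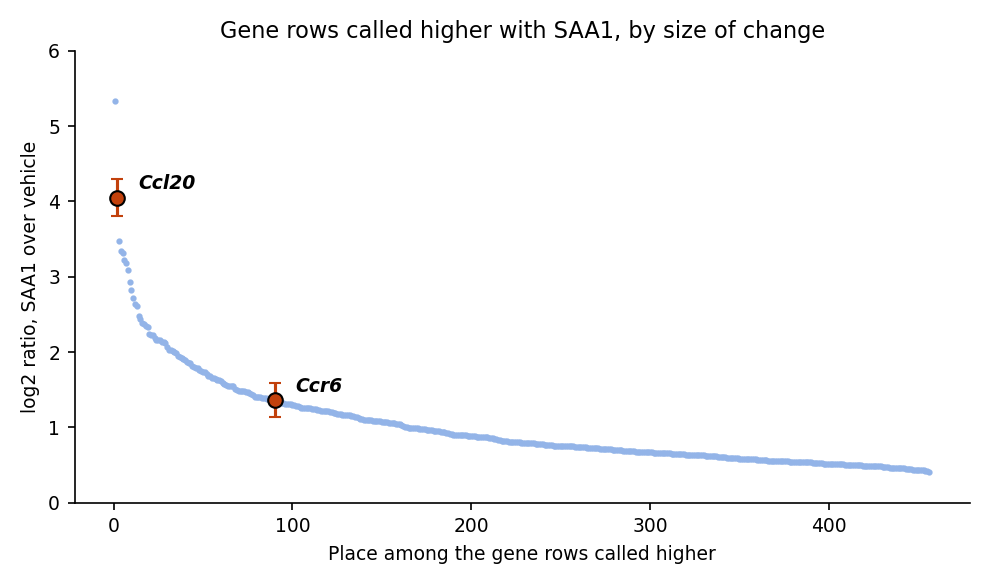
The 456 gene rows called higher with SAA1, in order of their log2 ratio (y). Orange points are Ccl20 in place 2 (4.05) and Ccr6 in place 90 (1.36), with bars of 1 implied SE.

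No tested transcript other than microRNA genes lay within a distance of 2 of Ccl20. Likeness was measured as the distance between 2 genes in the plane of log2 FPKM in vehicle and log2 FPKM in SAA1, which rests on 2 group values. Of the 5 tested rows nearest to Ccl20, 4 were microRNA gene rows that were not called (Mir212, Mir25, Mir5104 and Mir1900). The other was Cd24a, a surface glycoprotein gene, at 40.9 and 88.9 FPKM and a distance of 2.10. With microRNA and small nucleolar RNA rows left out, a choice made after the values were seen, Fam213a followed Cd24a, at 9.76 and 45.9 FPKM (distance 2.22). A distance of 1 is a 2-fold difference in a single group. Ccr6 had closer neighbours in this plane. Gem, a small GTP-binding protein, was at 16.9 and 42.6 FPKM, a distance of 0.12, and Ier3, an immediate-early response gene, at 13.5 and 36.9 FPKM, a distance of 0.26. Both were called higher in the authors' deposited table, with adjusted p 0.0019. The other 3 of the 5 rows nearest to Ccr6 were Mir697, Snord67 and Mir345, none of them called.

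Among chemokine ligands the rise of Ccl20 stood apart. Besides Ccl20 the table held 39 ligand rows, of which 10 reached 1 FPKM. In vehicle Ccl20 was in place 3 by level, behind Ccl4 at 51.7 FPKM and Ccl3 at 26.4 FPKM, both attractants of activated T cells and monocytes. With SAA1 it was in place 1, ahead of Ccl4 at 66.0 FPKM and Ccl3 at 26.8 FPKM. The summed FPKM of the 40 ligand genes was 116 in vehicle, of which Ccl20 made up 10.9%, and 329 in SAA1, of which it made up 63.6%. Without Ccl20 the sums were 104 and 120 FPKM. Of 12 tested ligands other than Ccl20, 1 was called higher and 0 lower, against 3.97% and 2.55% of all tested rows. At an unadjusted p under 0.05 there were 4 of the 12, or 33.3%, against 15.8% of all tested rows. The one called was Cxcl3, a neutrophil attractant, from 6.16 to 11.5 FPKM (log2 ratio 0.90 ± 0.31, adjusted p 0.0035, taken from the authors' deposited table). For most of 4200 genes compared, Cuffdiff's p-value was smaller than a normal approximation of its own statistic gives. By that approximation Cxcl3 had an adjusted p of 0.11. Cuffdiff's p goes no lower than 5e-05, so for the largest statistics, such as that of Ccl20, the approximation gives the smaller value. The log2 ratio of Ccl20 exceeded that of Cxcl3, the next largest among expressed ligands, by 3.15 ± 0.39. The next ligands by size of log2 ratio among those expressed were lower with SAA1 and were not called. Ccl5, a T cell chemokine, was at 4.49 and 1.66 FPKM (adjusted p 0.065), Cxcl10, a ligand of CXCR3 whose locus is shared with other rows, at 2.20 and 1.33 FPKM (0.26), and Ccl22, a ligand of CCR4, at 3.57 and 2.71 FPKM (0.44). The median log2 ratio of the 10 was -0.02, as was that of all expressed rows, but over the 3 ligands with at least 5 FPKM (Ccl3, Ccl4 and Cxcl3) it was 0.35.

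**Figure D3:**
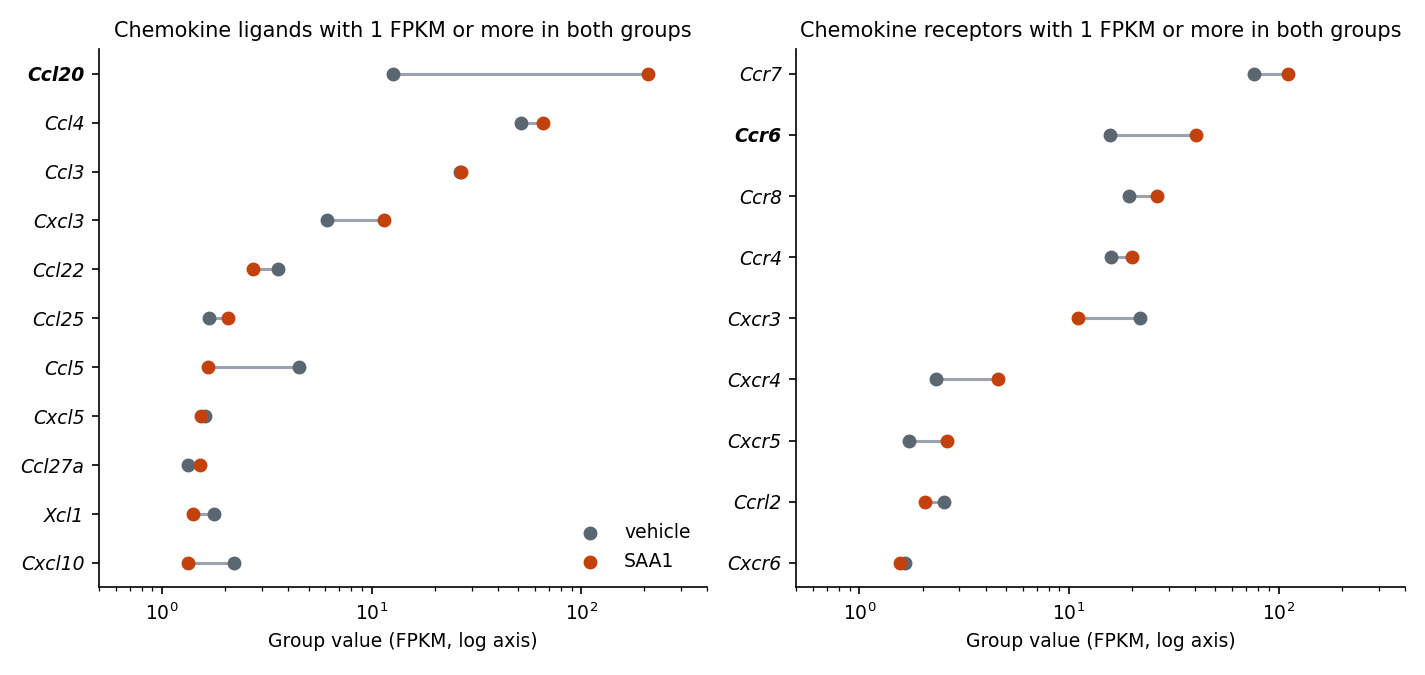
Group FPKM (x, log axis) of each chemokine ligand (left) and receptor (right) with at least 1 FPKM in both groups. Grey points are vehicle, orange points SAA1. Ccl20 was in place 3 of the ligands with vehicle and in place 1 with SAA1, and Ccr6 in place 5 and place 2 of the receptors.

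Among expressed chemokine receptors Ccr6 had the largest log2 ratio, by a margin within its error. The table held 21 other receptor rows, 9 of them expressed. In vehicle Ccr6 was in place 5 by level, behind Ccr7 at 76.1 FPKM, Cxcr3 at 21.8 FPKM, Ccr8 at 19.2 FPKM and Ccr4 at 15.8 FPKM, the last at nearly the same value as Ccr6. With SAA1 it was in place 2, at 40.6 FPKM, behind Ccr7 at 111 FPKM and ahead of Ccr8 at 26.2 FPKM. Its share of the summed FPKM of the 22 receptors was 9.90% in vehicle and 18.3% in SAA1. Of the 9 other receptors, all tested, 2 were called higher and 1 lower, against 3.97% and 2.55% of all tested rows. An unadjusted p under 0.05, in either direction, was found for 7, or 77.8%, against 15.8% of all tested rows. A difference between the groups at that level was thus not particular to Ccr6 among the receptors. Cxcr4, the receptor of CXCL12, rose from 2.31 to 4.60 FPKM (log2 ratio 0.99 ± 0.33, adjusted p 0.0071, taken from the authors' deposited table). Ccr7, which guides T cells into lymph nodes, rose from 76.1 to 111 FPKM (0.55 ± 0.20, adjusted p 0.0019). Cxcr3, the receptor of interferon-induced chemokines and common on Th1 cells, fell from 21.8 to 11.02 FPKM (-0.98 ± 0.24, adjusted p 0.0019). By the normal approximation the calls of Cxcr4 (adjusted p 0.11) and Ccr7 (0.18) were lost, and that of Cxcr3 was not (0.0029). The log2 ratio of Ccr6 was above that of Cxcr4 by 0.37 ± 0.40, less than 1 SE. The median log2 ratio of the 9 was 0.34, against -0.02 for all expressed rows.

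Beta-defensins, a family with members reported as other ligands of CCR6, had no measured transcript. The 6 genes of that list, Defb1, Defb2, Defb3, Defb4, Defb14 and Defb29, were listed at 0 FPKM in both groups.

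The signalling machinery below CCR6 was expressed throughout, and most of it did not pass the test. All 29 listed genes (G protein subunits, arrestins, receptor kinases, lipid kinases, regulators of the cytoskeleton and RGS proteins) were expressed. Of these, 3 (10.3%) were called higher and 0 lower, against 3.97% and 2.55% of all tested rows. An unadjusted p under 0.05 was found for 6, or 20.7%, against 15.8% of all tested rows. The inhibitory G protein subunits that CCR6 uses were among the abundant transcripts, Gnai2 at 180 and 191 FPKM and Gnai3 at 130 and 111 FPKM, neither called. Plcb3, a phospholipase activated by G protein beta-gamma subunits, rose from 1.83 to 4.54 FPKM (log2 ratio 1.31 ± 0.25). Arrb1, a beta-arrestin that ends receptor signalling and whose locus overlaps another row, rose from 5.71 to 9.67 FPKM (0.76 ± 0.21). Pik3r5, the regulatory subunit of phosphoinositide 3-kinase gamma, rose from 4.25 to 6.51 FPKM (0.61 ± 0.23). Plcb3 and Arrb1 had 0.0019, and Pik3r5 had 0.0047, as adjusted p by Cuffdiff in the authors' deposited table, and by the normal approximation only the last call was lost (0.19). Rgs16, a GTPase activator that shortens chemokine receptor signalling, was at 115 and 87.2 FPKM (adjusted p 0.057), and Rasgrp2, an activator of the small GTPase Rap1, at 0.453 and 1.002 FPKM (0.056). Neither was called. The median log2 ratio over the list was -0.05, close to that of all expressed rows.

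Among transcription factors, cytokines and receptors reported upstream of Ccl20 or Ccr6, 7 were called higher. That was 7 of 29 tested members of a list of 30, with 0 called lower, or 24.1% against the 3.97% of all tested rows called higher. At an unadjusted p under 0.05 there were 14, or 48.3%, against 15.8% of all tested rows. The list was drawn up with earlier results of these data known, so that share is a description and no independent evidence of direction. Maf, a bZIP factor that acts in Th17 differentiation, stood at 2.87 FPKM with vehicle and rose to 14.9 FPKM (log2 ratio 2.37 ± 0.25). Ahr, a ligand-activated factor that senses aryl hydrocarbons, rose from 3.58 to 11.5 FPKM (1.69 ± 0.22), and Rbpj, the DNA-binding partner of Notch, from 12.2 to 23.6 FPKM (0.95 ± 0.21). Il21, a cytokine that signals through STAT3, rose from 92.8 to 196 FPKM (1.08 ± 0.20). The adjusted p of all 4 was 0.0019 in the authors' deposited table, and they stayed called by the normal approximation. Their ratios were below that of Ccl20, and Maf and Ahr were above that of Ccr6. The transcripts of widely used factors were not called. Stat3 was at 112 and 133 FPKM (adjusted p 0.40), Batf at 208 and 194 FPKM (0.85), Irf4 at 160.0 and 168 FPKM (0.93) and Rela, the NF-kB subunit p65, at 22.1 and 22.4 FPKM (0.98). Runx1 was at 13.2 and 16.6 FPKM (0.21). Over the 28 expressed members the log2 ratio had a median of 0.25 and was above 0 in 23.

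**Figure D4:**
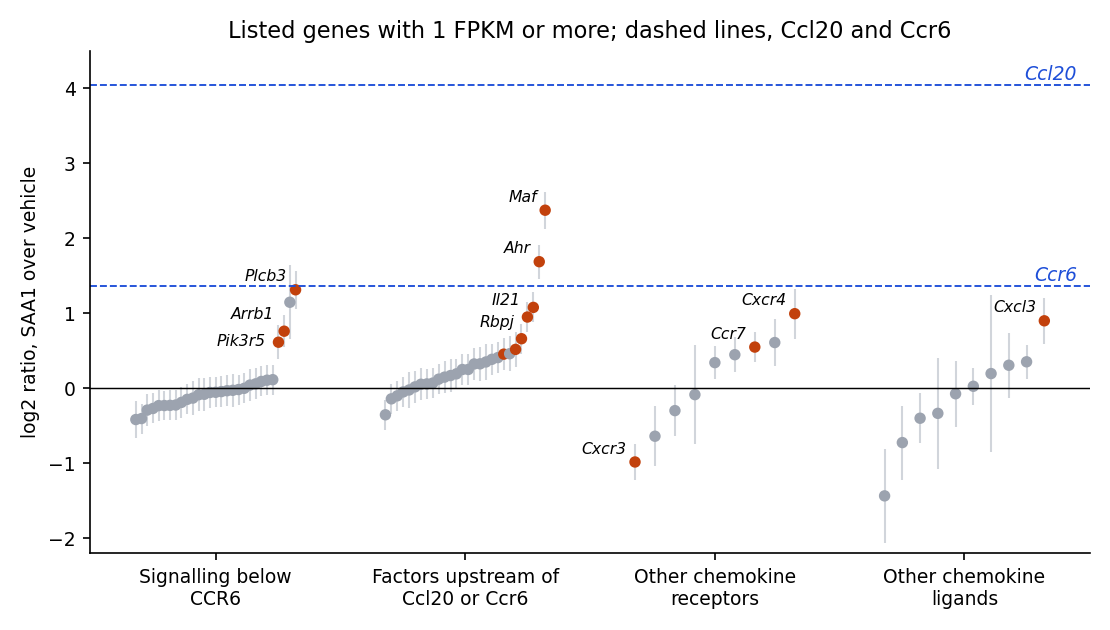
log2 ratio of SAA1 over vehicle (y) for expressed members (1 FPKM or more in a group) of the lists of CCR6 signalling, upstream factors, other receptors and other ligands, ordered by value within each list, with bars of 1 implied SE. Orange points were called by the authors' adjusted p, and dashed lines mark Ccl20 (4.05) and Ccr6 (1.36). Only Maf and Ahr lie above the Ccr6 line, and no gene drawn reaches that of Ccl20.

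The expressed genes next to Ccl20 and Ccr6 on the chromosome were not called. Of the 3 rows on either side of Ccl20, only Agfg1, about 220 kb away, was expressed, at 70.5 and 73.5 FPKM, and it was not called (adjusted p 0.94, taken from the authors' deposited table). Only 2 of the 6 rows beside Ccl20 were tested, too few to weigh against the 6.52% of all tested rows that were called. The 1 of them called, higher, was Slc19a3, a thiamine transporter gene 78.3 kb away. At 0.104 and 0.541 FPKM Slc19a3 lay under the level for naming and is given to complete the count. Its adjusted p was 0.047, and 0.12 by the normal approximation. Wdr69 and Sphkap, on the far side, were at 0 FPKM in both groups. Of the 6 rows beside Ccr6, all tested, 0 were called and 0 had an unadjusted p under 0.05. Of all tested rows, 6.52% were called and 15.8% had such an unadjusted p. With so few rows, 0 lies near those shares. Fgfr1op, a centrosome protein gene 39.6 kb away, was at 34.8 and 37.1 FPKM. Mpc1, a subunit of the mitochondrial pyruvate carrier 26.7 kb away, was at 18.7 and 19.95 FPKM. Sft2d1, in the same shared locus as Mpc1, was at 8.93 and 8.70 FPKM. Rnaset2b, which encodes a ribonuclease and has a near-identical copy, was at 3.56 and 3.20 FPKM, and the joint row Rnaset2a,Rnaset2b was at 0.00073 and 2.91 FPKM (adjusted p 0.65). Reads cannot be divided with certainty between such copies.

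**Figure D5:**
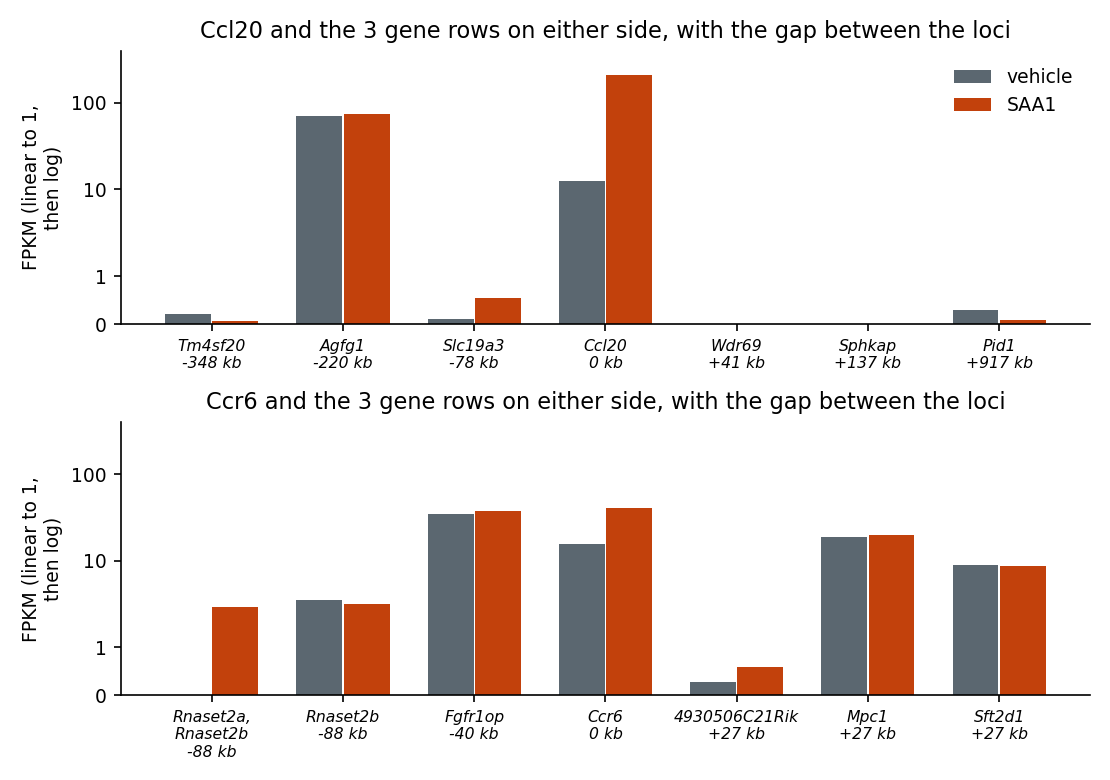
Group FPKM (y, linear up to 1 and logarithmic above) of Ccl20 (top) and Ccr6 (bottom) and of the 3 gene rows on either side, with the gap between loci in kb. Grey bars are vehicle and orange bars SAA1. Agfg1, Fgfr1op, Mpc1 and Sft2d1 have bars of nearly equal height.

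Transcripts that define T cells were present in both groups. Cd4 was at 162 and 131 FPKM and Cd3e at 39.1 and 28.2 FPKM, the latter called lower (adjusted p 0.039, taken from the authors' deposited table). Il17a and Il17f, the cytokines that define Th17 cells, were called higher, Il17a at 56.0 and 568 FPKM, Il17f at 145 and 898 FPKM. Markers of other cells that make CCL20 or carry CCR6 were low. Of 6 epithelial markers 0 reached 1 FPKM, and their sum was 0.649 FPKM in vehicle and 1.63 in SAA1. Epcam was the highest, at 0.508 and 0.709 FPKM, followed in SAA1 by Cldn4 at 0.0182 and 0.529 FPKM and Krt18 at 0.113 and 0.381 FPKM. Krt8 was at 0 and 0.0104 FPKM, Cdh1 at 0.011 and 0 FPKM, and Krt19 was listed at 0 in both groups. The part of this higher sum in the values of Ccl20 was not tested. Of 10 markers of dendritic cells and macrophages 0 reached 1 FPKM, with C1qa at 0 in both groups, and their sum was 1.25 and 1.20 FPKM. Zbtb46 was the highest, at 0.477 and 0.549 FPKM. Of 6 B cell markers 1 reached 1 FPKM, Ebf1 at 1.49 and 0.811 FPKM, and their sum was 3.50 and 2.34 FPKM. The markers of innate lymphoid and gamma-delta T cells were under 1 FPKM, apart from Id2, which T cells express too, at 33.6 and 34.0 FPKM, and 2 of 6 were not in the table. Of 4 regulatory T cell markers 3 were tested, with 1 called higher and 0 lower, against 3.97% and 2.55% of all tested rows. The one called was Ctla4, which rose from 299.6 to 744.9 FPKM (adjusted p 0.0019, taken from the authors' deposited table). Il2ra, at 83.4 and 81.0 FPKM, and Ikzf2, at 2.24 and 2.80 FPKM, were not called. Foxp3, the lineage factor, was not tested, at 0.169 and 0.184 FPKM. Of the 22 B cell, epithelial and myeloid markers only 6 were tested by the authors. Of those 0 were called, against 6.52% of all tested rows, so the count lies near that share.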

How the data were processed

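Per the labels' protocols, total RNA of cultured Th17 cells was extracted with Trizol and made into Illumina TruSeq libraries. The 4 libraries were grouped by their titles. The submitters' processing notes name TopHat2, Cuffdiff, mm9 and mm10, without versions. Their scaling and strand options are not given in the sources at hand. The deposited table gives, per the file headers, an FPKM value per group, a test statistic (a score) and the authors' p-value and q-value, called the adjusted p here. Depth is unknown, so no counting interval is given. Loci matched GRCm38 positions for 99.0% of 21458 rows with a RefSeq symbol, and starts are counted from 1.

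The log2 ratio was recomputed from the FPKM values. Its SE is that ratio over the deposited statistic. The deposited p corresponds to a normal deviate 1.42 times the statistic (median over 4200 genes with p above its smallest value). For such genes an SE derived from p would be smaller. A Benjamini-Hochberg adjustment of the deposited p matched the deposited q within 5.23e-07. The adjustment was tested on simulated data (Python 3.11.15, pandas 2.3.3, scipy 1.17.1). There the SE was only recovered from a statistic built with it, so whether the deposited statistic gives the right SE was not tested. The fold of rows at 0 in a group, 89 of the expressed rows, was not computed.

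A planned limma fit needed values for each library. Since the table holds group values, the deposited Cuffdiff test took its place. Ccl20, Ccr6 and all gene lists were chosen with earlier results of these data known. Named genes followed a rule: the 2 genes, the 5 rows nearest in pattern to each, expressed neighbours among 3 rows on either side, up to 4 members per list by adjusted p or size of change, the most abundant ligands and receptors, and defining T cell markers. Genes outside it, chosen after their values were seen, are the rows ahead of Ccl20, Il9 among them, Fam213a, Slc19a3, Wdr69, Sphkap, the beta-defensins, Gnai2, Gnai3, Rgs16, Rasgrp2, Stat3, Batf, Irf4, Rela, Runx1, Foxp3, Krt8, Krt18, Krt19, Cdh1, Cldn4 and C1qa. Il2ra and Ikzf2 were also named outside the rule. A few genes named by the rule are left unreported.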

Additional observations from a re-analysis of the deposited data

How the results depend on the processing

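Ccl20 and Ccr6 kept their direction and stayed called under all 8 alternatives tried for each, with log2 ratios from 3.95 to 4.07 and from 1.31 to 1.39. The alternatives were thresholds of 0.01 and 0.1, adjustment over expressed rows, the normal p of the statistic, centring on the median, a 1.5-fold minimum and pseudocounts of 0.1 and 1. Most of these could not have changed the call. Cuffdiff's adjusted p of 0.0019 and the folds of both genes pass either threshold and the 1.5-fold minimum. The pseudocounts kept the deposited adjusted p. Only the adjustment over expressed rows, the normal p and the centring gave a new adjusted p. Over the whole table, 749 rows were called, against 436 at a threshold of 0.01, 245 with the normal p of the statistic and 244 with the centred ratio, which uses that normal p as well. By log2 ratio Ccl20 moved from place 7 to place 19 among all rows above 0 in both groups, to place 4 among rows sharing no locus and to place 1 among rows of like vehicle level (the last chosen after seeing the data). Ccr6 moved from place 93 to place 39 at a minimum of 5 FPKM, to place 491 among all rows above 0 and to place 8 among rows of like vehicle level. Each of these pools holds other rows by construction. At a threshold of 0.1, 1 gene of CCR6 signalling and 1 chemokine ligand were called lower, against 0 at 0.05, and 4 receptors were called higher, against 2. The median log2 ratio of the other ligands turned from -0.02 to 0.35 at a minimum of 5 FPKM, a move smaller than the median SE of its members. It was the only change of sign among the other 49 alternatives, which include those of the 2 genes and moved no count by over 1.5 times. No paired analysis was possible because the table holds 1 value per group, and for the same reason no replicate was left out and no filter per library was tried.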
